A study of Mus musculus with 12 samples.

Results

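Open chromatin was examined around 7 genes of T cell growth and nutrient uptake, Myc, Hif1a, Slc2a1, Slc7a5, Slc3a2, Hk2 and Tfrc, in mouse regulatory T cells (Treg) with and without the transcription factor Ikaros. Members were the ATAC-seq regions that overlap the gene body in the mm9 annotation, or the 20 kb on either side of it. The rule found 62 of the 118680 regions in the table, and 47 of these passed the filter on low counts that 69957 of all regions passed. WT Treg came from Foxp3-YFP-Cre mice and Ikzf1-cko Treg from Ikzf1-fl-Foxp3-YFP-Cre mice, so every library carries the Cre, and the deletion follows expression of Foxp3, into which the YFP-Cre is placed. CD4+YFP+ cells were sorted and used either directly (ex vivo) or after 4 hr on plate-bound anti-CD3 and anti-CD28 (stimulated). The methods say that sorted cells were divided into a stimulated and an unstimulated part, so ex vivo and stimulated libraries of a genotype may come from the same sort, while the tests treat them as separate. This gives 4 groups of 3 libraries, 12 in all, each made from 100000 cells. The labels name the spleen as source and the methods name spleen and lymph nodes, and the age of these mice was not given in the sources used here.

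Naive and resting T cells use little glucose and make little new protein, and signals through the T cell receptor and CD28 switch on Myc, a transcription factor that drives cell growth, ribosome production and the uptake of fuel. Hif1a is the regulated subunit of the hypoxia-inducible factor and turns on glycolytic genes, Slc2a1 is the glucose transporter GLUT1, and Hk2 is a hexokinase that traps glucose in the cell. Slc7a5 and Slc3a2 together form the CD98 transporter of large neutral amino acids, which feeds mTORC1, and Tfrc is the transferrin receptor that takes up iron. Ikaros, encoded by Ikzf1, is a zinc finger factor that binds sequences with the core GGGAA.

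Sequences are shown for 5 windows that the results below turn on, picked after their values were seen. They are 200 bases each, read on the plus strand of mm9: the centre of OCR_40846 upstream of Myc (chr15:61813140-61813339), the bases just before the Myc start site (chr15:61816746-61816945), the centre of the intronic Slc2a1 region OCR_81430 (chr4:118798468-118798667), the centre of OCR_81426 upstream of Slc2a1 (chr4:118778448-118778647), and the centre of OCR_24665 upstream of Hif1a (chr12:74989093-74989292). Capitals mark GGGAA or its reverse complement TTCCC.
OCR_40846: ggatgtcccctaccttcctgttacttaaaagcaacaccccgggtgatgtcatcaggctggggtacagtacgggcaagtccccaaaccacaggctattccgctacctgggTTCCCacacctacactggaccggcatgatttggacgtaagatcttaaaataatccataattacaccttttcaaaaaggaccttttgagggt
Myc upstream: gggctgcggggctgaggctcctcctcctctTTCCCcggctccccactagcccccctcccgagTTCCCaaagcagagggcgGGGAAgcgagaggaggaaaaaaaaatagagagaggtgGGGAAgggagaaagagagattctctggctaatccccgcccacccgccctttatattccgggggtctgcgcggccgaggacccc
OCR_81430: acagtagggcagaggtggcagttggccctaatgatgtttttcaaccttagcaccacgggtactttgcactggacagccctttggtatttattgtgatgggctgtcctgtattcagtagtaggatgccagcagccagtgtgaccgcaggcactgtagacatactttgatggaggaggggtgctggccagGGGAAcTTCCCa
OCR_81426: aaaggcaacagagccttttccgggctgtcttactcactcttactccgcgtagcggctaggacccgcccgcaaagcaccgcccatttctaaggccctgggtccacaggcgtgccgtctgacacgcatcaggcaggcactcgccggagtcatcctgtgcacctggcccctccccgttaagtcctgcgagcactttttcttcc
OCR_24665: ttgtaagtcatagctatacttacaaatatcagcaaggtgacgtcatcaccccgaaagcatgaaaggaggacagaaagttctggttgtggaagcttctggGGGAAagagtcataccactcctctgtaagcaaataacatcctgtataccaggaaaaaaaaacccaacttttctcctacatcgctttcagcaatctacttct

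The 200 bases before the Myc start site hold 4 matches to GGGAA on either strand. The same bases hold 1 at Hk2 and 0 at Slc2a1, Slc7a5, Hif1a, Tfrc and Slc3a2. No share over all genes was taken for such windows, and a link to the genotype differences was not tested. The printed window of OCR_81430 holds 2 that face each other across 1 base at its end. The printed windows of OCR_40846 and OCR_24665 hold 1 each and that of OCR_81426 holds none, while over their whole lengths these regions hold 1, 3 and 1. Over its whole length of 801 bases OCR_81430 holds 8. A match to these letters is common: 45.1% of the central 200 bases of all 69957 tested regions hold GGGAA, and so do those of 20 of the 47 tested members (42.6%). The other motifs searched on both strands were the E-box CACGTG, which Myc with Max can bind, the hypoxia response core ACGTG that CACGTG contains, the AP-1 motif TGANTCA and the NFAT core GGAAA, which shares letters with GGGAA. In the same central 200 bases of the tested members, the E-box stood in 2 (4.26%, against 4.12% of all), ACGTG in 8 (17%, against 13.1%), TGANTCA in 3 (6.38%, against 10.3%) and GGAAA in 16 (34%, against 46.4%).

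The libraries hold between 4808916 and 15355521 reads in regions, and every Ikzf1-cko library is deeper than every WT library. Depth and genotype are thus confounded, and values after thinning every library to 4808916 reads are given where a result turns on them. Start-site regions of Foxp3, Il2ra, Ctla4, Cd4 and Cd3e were present, at 6.7 to 25.1 FPKM as group means. Foxp3 stood at 6.7 FPKM in WT and 11.2 in Ikzf1-cko ex vivo, and at 14.6 and 15.7 when stimulated. The others of these genes stood at 17.5 to 25.1 FPKM. No region lay over the start sites of Ikzf2, Ms4a1, Pax5, Lyz2, Csf1r, Itgam, Ncr1 or Klrb1c. The CD8 T cell genes Cd8a and Cd8b1 had a start-site region each, Cd8a at 8.4 FPKM in WT and 3.6 in Ikzf1-cko ex vivo, and at 9.5 and 5.8 when stimulated. Cd8b1 stood at 13.4 and 8.9 ex vivo, and at 11.8 and 9.5 when stimulated, and the part of these differences in the results was not tested. In bulk libraries a change in the mix of cells and a change within the cells cannot be told apart. At Ikzf1 itself 28 of 31 regions were tested, and its start-site region stood at 19.2 FPKM in WT and 19.4 in Ikzf1-cko ex vivo. Past both thresholds given below, 1 Ikzf1 region was higher and 1 lower ex vivo, and 1 was higher and 0 lower when stimulated. The shares of all tested regions were 4.63% and 21.3%. OCR_16480 was higher in both states, with log2 fold changes of 1.03 and 1.32, and OCR_16496 was lower ex vivo, at -1.27. No source used here names the deleted exon, so open chromatin does not check the genotype labels.

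FPKM here is the number of reads in a region per kb of its length, scaled to the reads in all regions of the library. The tested members were more open than most regions, with a median of 17.9 FPKM over the 12 libraries against 9.77 for all tested regions, and they were longer, with a median of 766 against 607 bases. The 15 members that failed the filter had mean levels of 4.61 to 9.49 FPKM. Of the 62 members 31 overlap the body of their own gene, and 7 lie over the start site of another gene. A change was called at the thresholds of the study, an adjusted p below 0.05 with a fold change past 2-fold (a log2 value over 1 in size), and a weaker rule of the adjusted p alone is given beside it.

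No member passed both thresholds in any comparison, by edgeR's quasi-likelihood test. Of all tested regions, 4.63% did between Ikzf1-cko and WT ex vivo, 21.3% between Ikzf1-cko and WT when stimulated, 20% on stimulation of WT, 3.65% on stimulation of Ikzf1-cko, and 1.98% for the difference of the stimulation changes. Of the 47 tested members, an unadjusted p under 0.05 was reached by 17, 25, 17, 17 and 9 in these comparisons. The shares of all tested regions at that level were not taken, so whether these counts lie above or below them cannot be said. DESeq2 called 0, 1, 0, 0 and 0 members past both thresholds, and limma on log2(FPKM + 1) called 0 in each. The fitted differences at all 47 tested members were smaller than 2-fold, and the text below gives mainly those that passed the adjusted p alone.

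Without Ikaros, open chromatin was higher at 10 members and lower at 1 ex vivo, and higher at 20 and lower at 0 after stimulation, by the adjusted p alone. The shares over all tested regions were 8.78% higher and 12.7% lower ex vivo, and 20.4% higher and 30.7% lower when stimulated. The 3 Ikzf1-cko libraries all lay above the 3 WT libraries at 16 members ex vivo and all below at 3, against 14.9% and 21% of all tested regions. When stimulated they lay above at 27 members and below at 1, against 23.2% and 34% of all regions. The median log2 fold change over the tested members was 0.08 ex vivo and 0.29 when stimulated, against -0.13 and -0.11 over all tested regions and 0.09 and 0.20 over the 10885 tested regions that lie over the start site of a protein-coding gene. Over the 59072 tested regions that lie over no such start site the medians were -0.20 and -0.20. TMM scaling moves the median of all regions ex vivo from -0.13 to -0.02 and that of the members from 0.08 to 0.20. A loess fit against abundance leaves 10 members higher and 3 lower of the stimulated comparison, in place of 20 and 0.

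**Figure D1:**
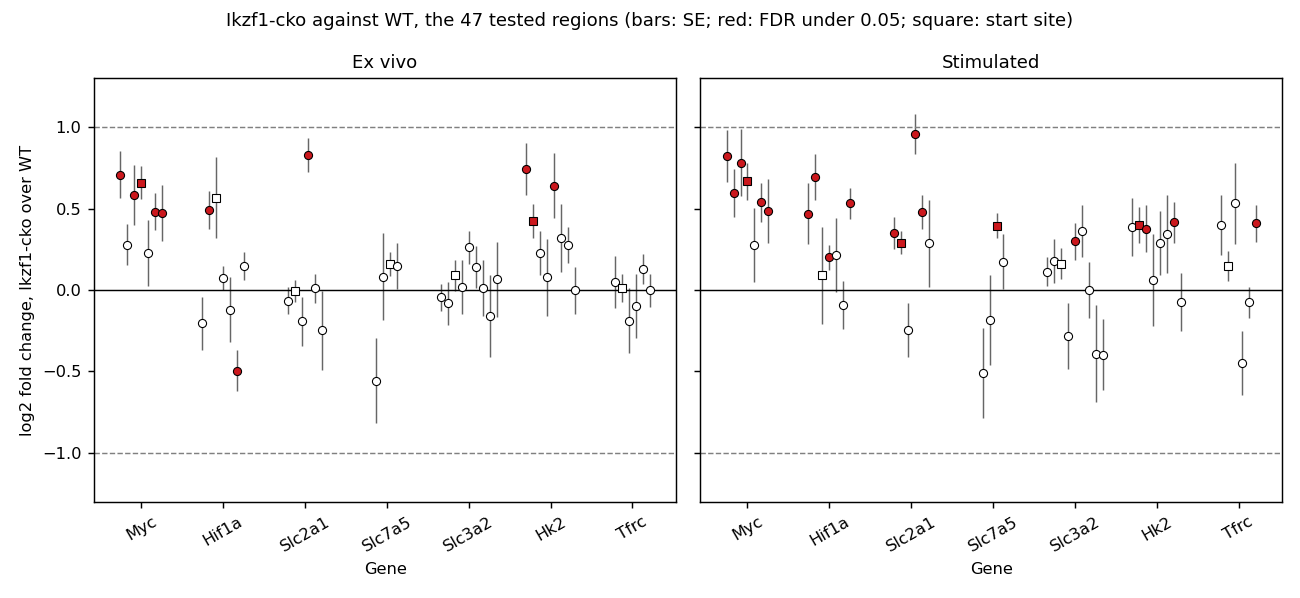
Log2 fold change of Ikzf1-cko over WT (y axis) for the 47 tested regions by gene (x axis), ex vivo at left and stimulated at right. Points are fitted values, bars are standard errors, red marks an adjusted p under 0.05, squares are start-site regions and dashed lines are the study's fold threshold. Myc regions sit above 0 in both panels, and no point passes a dashed line.

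Myc, the growth regulator, was the gene of the 7 with no tested region lower without Ikaros in either state. Hk2 came near to this, with log2 fold changes from -0.002 to 0.74 ex vivo and from -0.07 to 0.42 when stimulated. The share of all genes with such a pattern was not taken. The 7 tested Myc regions neighbour each other between 3.71 kb before and 2.61 kb after the start site on chromosome 15. All had a higher mean in Ikzf1-cko Treg in both states. Of these, 5 passed the adjusted p ex vivo and 6 when stimulated, and the log2 fold changes ran from 0.23 to 0.71 ex vivo and from 0.28 to 0.82 when stimulated. These fold changes stayed above 0 with each alternative scaling and tool and without each library in turn, and the number past the adjusted p then ran from 3 to 6 ex vivo and from 5 to 6 when stimulated.

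The region over the Myc start site, OCR_40849 (chr15:61816442-61817253), measured 27.0, 26.6 and 32.7 FPKM in the WT libraries ex vivo and 48.9, 42.7 and 45.7 in the Ikzf1-cko libraries. When stimulated the WT libraries stood at 21.2, 27.4 and 27.4 FPKM and the Ikzf1-cko libraries at 37.7, 39.5 and 42.6. Every Ikzf1-cko library was above every WT library of the same state. The means were 28.8 ± 3.4 and 45.8 ± 3.1 FPKM ex vivo (SD, n = 3), a log2 fold change of 0.66 ± 0.10 (SE, adjusted p = 2.32e-05), and 25.3 ± 3.6 and 39.9 ± 2.5 when stimulated, a log2 fold change of 0.67 ± 0.11 (adjusted p = 2.44e-05). After thinning, the log2 fold changes were 0.66 and 0.77, and with the loess fit 0.57 and 0.37, all past the adjusted p.

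OCR_40846 (chr15:61813034-61813445), an intergenic region centred 3.71 kb before the Myc start site, had the largest genotype difference at this gene. It measured 20.1, 19.3 and 24.0 FPKM in WT and 34.3, 37.2 and 33.0 in Ikzf1-cko ex vivo, and 14.0, 23.5 and 21.7 in WT against 34.7, 32.9 and 36.0 in Ikzf1-cko when stimulated. The genotypes did not overlap in either state. Its log2 fold change was 0.71 ± 0.14 ex vivo (adjusted p = 0.000651) and 0.82 ± 0.16 when stimulated (adjusted p = 0.000116), and both calls held in 22 of 22 alternatives. OCR_40848, centred 0.917 kb before the start site, was higher ex vivo, at 33.9 ± 1.0 against 22.6 ± 0.8 FPKM, a log2 fold change of 0.58 ± 0.18 (adjusted p = 0.022), and by 0.78 ± 0.20 when stimulated (adjusted p = 0.0019). The ex vivo call is lost after thinning and by DESeq2 (adjusted p up to 0.254), and without ex vivo WT replicate 1 or 2 or Ikzf1-cko replicate 1 (adjusted p up to 0.0887).

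Within the gene, OCR_40851 (chr15:61818218-61819212), over an exon where 2 annotated coding transcripts start, was higher by 0.48 ± 0.11 ex vivo (adjusted p = 0.00296) and by 0.54 ± 0.12 when stimulated (adjusted p = 0.000508, lost with the loess fit at 0.27). OCR_40852, over an exon, was higher by 0.47 ± 0.17 and 0.49 ± 0.20 with adjusted p of 0.0453 and 0.0377, and 10 and 7 of 22 alternatives lose these calls. Ex vivo it is lost without WT replicate 2 or 3, Ikzf1-cko replicate 1 or 2 or stimulated Ikzf1-cko replicate 2 (adjusted p up to 0.181), and when stimulated without replicate 1 or 3 of either genotype (adjusted p up to 0.145). The intronic OCR_40850, of 182 bases, had libraries that overlap in both states, at 20.1 to 36.4 FPKM in WT ex vivo. OCR_40847, centred 1.89 kb before the start site, was the most open Myc region, at 41.2 ± 2.9 FPKM in WT and 50.1 ± 3.6 in Ikzf1-cko ex vivo (adjusted p = 0.11), and its difference when stimulated was 0.60 ± 0.15 (adjusted p = 0.0014). The remaining region, OCR_40853 at 13.6 kb after the start site, failed the filter on low counts.

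**Figure D2:**
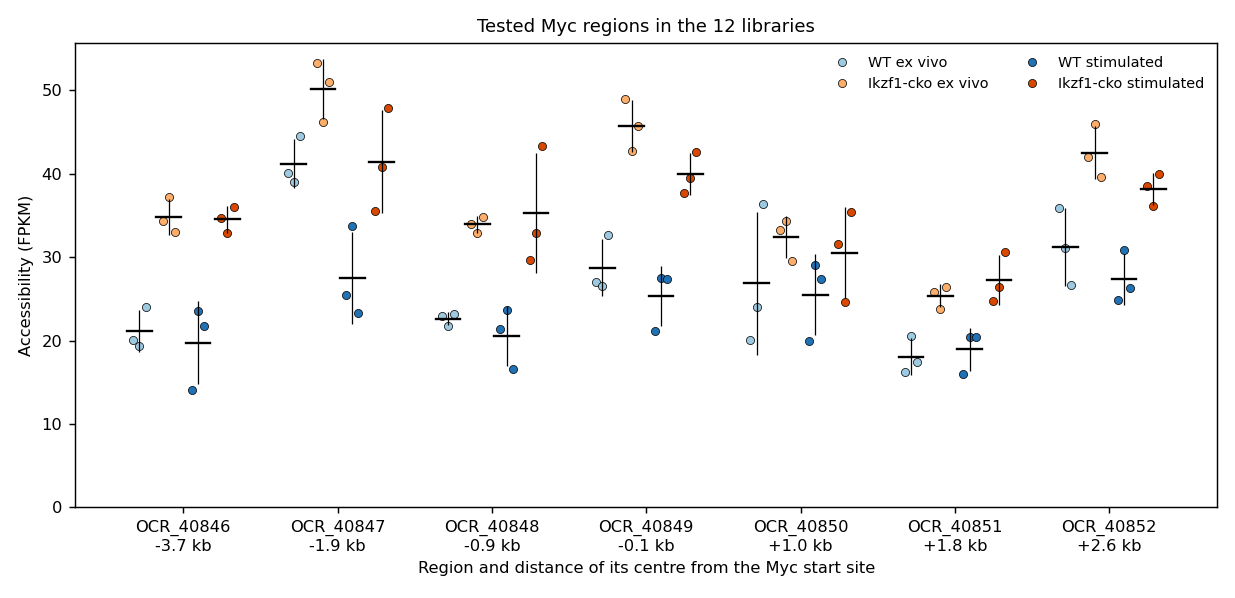
Accessibility in FPKM (y axis) of the 7 tested Myc regions (x axis, ordered by distance from the start site) in the 12 libraries. Points are libraries, thick bars are means of 3 and thin lines their SD. At OCR_40846 and OCR_40849 every Ikzf1-cko library lies above every WT library of its state, from 34.8 and 45.8 FPKM as ex vivo Ikzf1-cko means.

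A region outside the rule was looked at after its values were seen. OCR_40856 (chr15:61875115-61875906) lies in an intron of Pvt1, the noncoding RNA gene next to Myc, centred 58.6 kb past the Myc start site. It measured 13.6, 12.5 and 13.4 FPKM in WT and 29.2, 31.1 and 26.7 in Ikzf1-cko ex vivo, and 11.3, 12.7 and 10.8 against 26.2, 25.6 and 23.8 when stimulated. Its log2 fold change of 1.14 ± 0.12 ex vivo (adjusted p = 3.22e-08) and 1.11 ± 0.13 when stimulated (adjusted p = 1.77e-07) passed both thresholds. It was the 1 region past both thresholds of the 4 tested that lie within 100 kb of Myc but outside the 20 kb window. In the same flanks of the other genes no region passed both thresholds between genotypes.

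Slc2a1, the glucose transporter, held the member with the smallest genotype p. OCR_81430 (chr4:118798167-118798967), in an intron 17.3 kb into the gene, measured 19.9, 19.4 and 20.9 FPKM in WT and 37.6, 36.1 and 33.4 in Ikzf1-cko ex vivo. When stimulated it measured 14.2, 14.1 and 14.5 in WT and 25.2, 30.1 and 28.0 in Ikzf1-cko. The genotypes were far apart and did not overlap. The log2 fold change was 0.83 ± 0.10 ex vivo (adjusted p = 1.01e-06) and 0.96 ± 0.12 when stimulated (adjusted p = 5.67e-07). The second value crosses the fold threshold, reaching at most 1.06, with TMM scaling, with DESeq2 and without stimulated Ikzf1-cko replicate 1. After thinning it was 0.84 and 0.93, and with the loess fit 0.79 and 0.72.

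The other Slc2a1 regions did not pass the adjusted p ex vivo, and 3 of them passed it when stimulated, with higher values in Ikzf1-cko. These were OCR_81426 at 0.35 ± 0.10 (adjusted p = 0.0033), the start-site region OCR_81427 (chr4:118781005-118782135) at 0.29 ± 0.07 (adjusted p = 0.0010) and the intronic OCR_81431 at 0.48 ± 0.11 (adjusted p = 0.00038). The loess fit ends all these calls, with log2 fold changes of 0.016, -0.095 and 0.17, so the direction at the start site turns. OCR_81429, in an intron, and OCR_81432, past the gene, did not pass the adjusted p in either state.

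**Figure D3:**
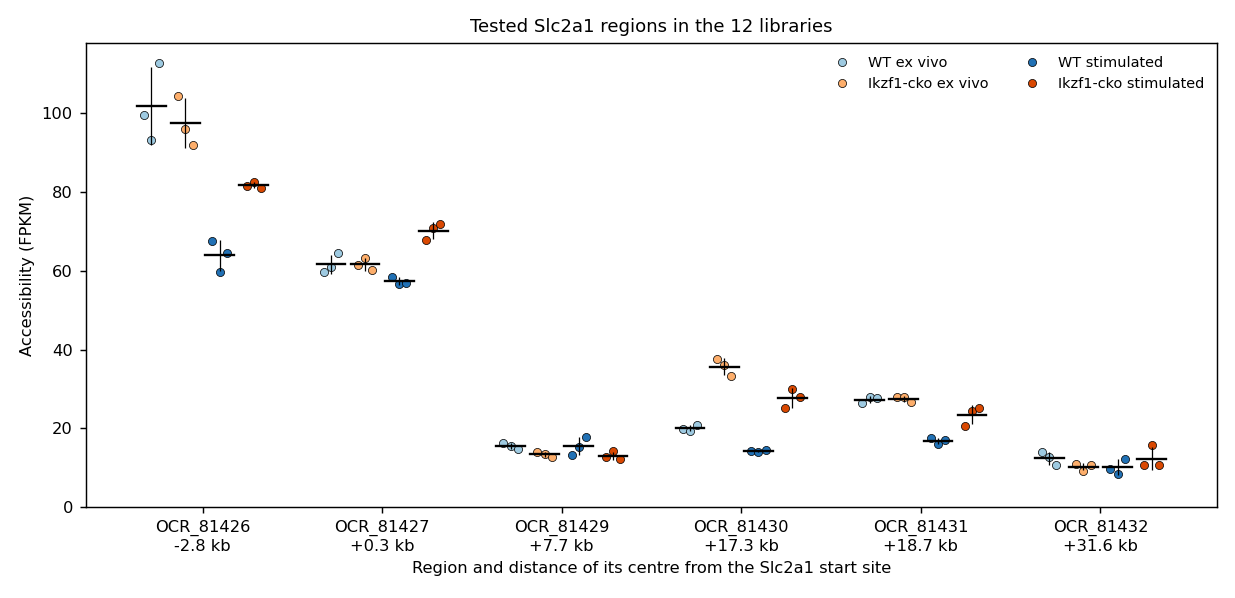
Accessibility in FPKM (y axis) of the 6 tested Slc2a1 regions (x axis, ordered by distance from the start site) in the 12 libraries, with means of 3 and SD. OCR_81430 separates by genotype in both states, at 20.1 and 35.7 FPKM ex vivo, whereas OCR_81426 and OCR_81431 are lowest in stimulated WT.

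Hk2, the hexokinase, was higher without Ikaros around its start site. OCR_94221 (chr6:82725264-82725849), centred 1.11 kb before the start, measured 11.8, 10.9 and 10.5 FPKM in WT and 19.2, 15.5 and 20.6 in Ikzf1-cko ex vivo, with no overlap. Its log2 fold change was 0.74 ± 0.16 (adjusted p = 0.0011), and 0.39 ± 0.18 when stimulated (adjusted p = 0.072). The start-site region OCR_94220 (chr6:82724169-82724996) stood at 23.9 ± 4.0 and 32.7 ± 1.4 FPKM ex vivo, a log2 fold change of 0.43 ± 0.11 (adjusted p = 0.0044), and at 27.1 ± 1.1 and 35.6 ± 2.6 when stimulated, 0.40 ± 0.11 (adjusted p = 0.0034). The stimulated value is 0.11 with the loess fit, which ends the call. OCR_94217, a weak intronic region of 3.9 ± 0.4 FPKM in WT ex vivo, was higher by 0.64 ± 0.20 (adjusted p = 0.0218), and it is lost in 8 of 21 alternatives, among them without ex vivo WT replicate 1 or 3 or Ikzf1-cko replicate 1 or 2 (adjusted p up to 0.0866). When stimulated, OCR_94215 in an intron was higher by 0.42 ± 0.13 (adjusted p = 0.00664), and this is lost with the loess fit and without Ikzf1-cko replicate 2 (adjusted p = 0.0502). OCR_94219, over the other coding start, was higher by 0.38 ± 0.15 (adjusted p = 0.0303), and this is lost with the loess fit and without stimulated WT replicate 1 or 3 or Ikzf1-cko replicate 1 or 2 (adjusted p up to 0.0989).

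Hif1a had 1 member higher in both states and 1 lower ex vivo. OCR_24665 (chr12:74988596-74989789), intergenic and 13.2 kb before the first annotated start site, measured 12.4, 13.1 and 14.0 FPKM in WT and 17.3, 19.5 and 19.2 in Ikzf1-cko ex vivo, and 7.8, 11.9 and 8.5 against 14.8, 16.3 and 14.6 when stimulated. The genotypes did not overlap. Its log2 fold change was 0.49 ± 0.12 ex vivo (adjusted p = 0.0034) and 0.70 ± 0.14 when stimulated (adjusted p = 0.00017), and both calls held in 22 of 22 alternatives. OCR_24675, past the end of the gene, was lower ex vivo, at 9.4 ± 1.4 against 13.4 ± 0.6 FPKM, a log2 fold change of -0.49 ± 0.13 (adjusted p = 0.0052), the lone lower call between genotypes, and DESeq2 loses it.

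The first annotated Hif1a start site lies in a weak region, OCR_24669, at 8.1 ± 2.3 FPKM in WT and 11.6 ± 0.5 in Ikzf1-cko ex vivo (adjusted p = 0.098). The other 2 coding transcripts start in OCR_24670 (chr12:75008398-75009768), which stood at 43.5 ± 2.6 and 46.1 ± 1.1 FPKM ex vivo (adjusted p = 0.46) and at 41.3 ± 1.8 and 47.3 ± 3.1 when stimulated. The latter difference of 0.20 ± 0.08 (adjusted p = 0.032) turns to -0.17 with the loess fit, and is lost without stimulated WT replicate 1 or Ikzf1-cko replicate 3 (adjusted p up to 0.173). When stimulated, OCR_24677 over the start site of Snapc1, a neighbouring gene, was higher by 0.53 ± 0.10 (adjusted p = 5.67e-05), and by 0.21 with the loess fit, which ends the call. OCR_24664, at the far edge of the window, was higher by 0.47 ± 0.19 (adjusted p = 0.036) and is lost without stimulated replicate 1 or 3 of either genotype (adjusted p up to 0.19).

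The CD98 genes and Tfrc had no genotype call ex vivo. At Slc7a5 the start-site region OCR_110702 (chr8:124430360-124432143), which also lies over the start of BC048644, measured 34.3, 32.6 and 34.0 FPKM in WT and 36.6, 37.7 and 38.5 in Ikzf1-cko ex vivo, a difference of 0.16 ± 0.07 (adjusted p = 0.11). When stimulated its WT libraries lay between 25.6 and 30.9 FPKM and its Ikzf1-cko libraries between 37.1 and 39.2, a difference of 0.40 ± 0.08 (adjusted p = 0.000132) that is 0.019 with the loess fit. At Slc3a2 the start-site region OCR_57883, shared with Snhg1, had genotype differences of 0.09 ± 0.09 ex vivo (adjusted p = 0.50) and 0.16 ± 0.10 when stimulated (adjusted p = 0.17). At the same gene OCR_57881, where the other coding transcript starts, was higher by 0.30 ± 0.11 when stimulated (adjusted p = 0.028). That call is lost with the loess fit and without stimulated WT replicate 1 or 3 or Ikzf1-cko replicate 3 (adjusted p up to 0.173).

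Tfrc, which loads T cells with iron, had a start-site region OCR_45213 (chr16:32608618-32609849) at 28.8 ± 2.6 FPKM in WT and 29.2 ± 1.0 in Ikzf1-cko ex vivo (0.01 ± 0.09, adjusted p = 0.93), and 29.7 ± 2.8 and 32.7 ± 1.5 when stimulated (0.15 ± 0.09, adjusted p = 0.19). Of its 6 tested regions, the one higher in stimulated Ikzf1-cko Treg was OCR_45218, in an intron of the neighbour Tnk2, by 0.41 ± 0.11 (adjusted p = 0.0029), and the loess fit ends that call.

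**Figure D4:**
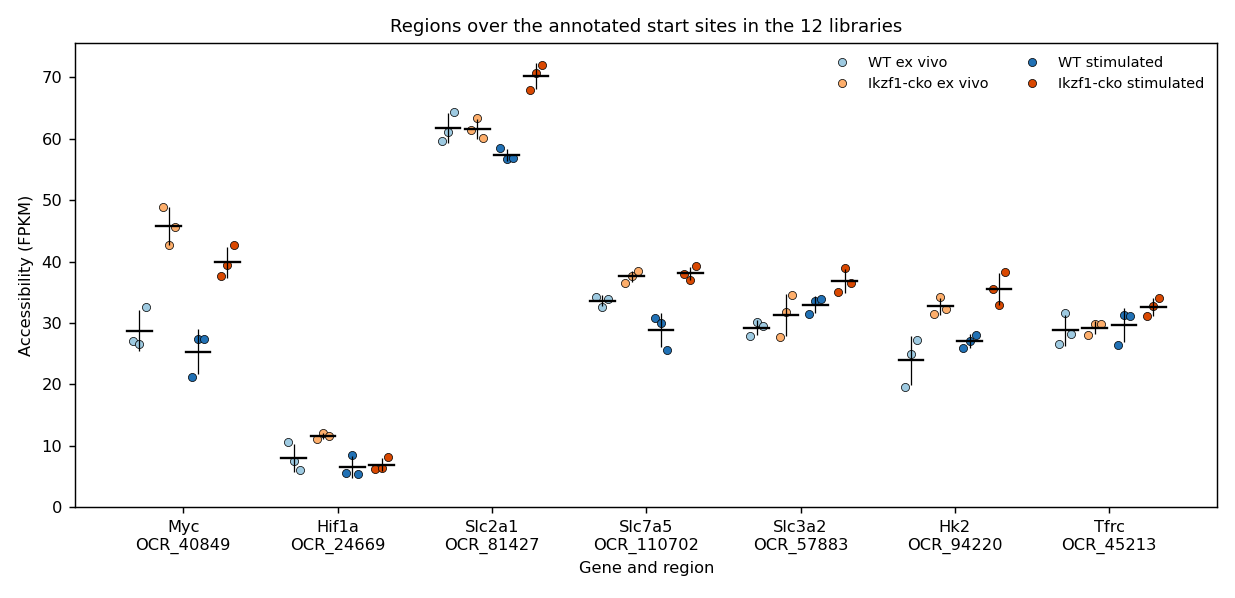
Accessibility in FPKM (y axis) of the 7 regions over the first annotated start sites (x axis) in the 12 libraries, with means of 3 and SD. The Slc2a1 region is the most open in each group and the Hif1a region the least. At Myc, Slc7a5 and Hk2 every Ikzf1-cko library lies above every WT library of its state. The ex vivo difference at Slc7a5 did not pass the adjusted p. OCR_24670, where the other 2 Hif1a coding transcripts start, is not drawn.

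Per length, the regions over the first annotated start sites differed widely between genes. Slc2a1 stood highest, at 61.7 ± 2.4 FPKM in WT ex vivo, 61.6 ± 1.6 in Ikzf1-cko ex vivo, 57.3 ± 1.0 in stimulated WT and 70.2 ± 2.1 in stimulated Ikzf1-cko. In WT ex vivo Slc7a5 (33.6 ± 0.9), Slc3a2 (29.2 ± 1.2), Tfrc (28.8 ± 2.6), Myc (28.8 ± 3.4) and Hk2 (23.9 ± 4.0) followed, and from Slc3a2 to Hk2 the libraries of neighbours in this order overlap. In Ikzf1-cko ex vivo Myc came second at 45.8 ± 3.1 FPKM, ahead of Slc7a5 at 37.6 ± 1.0, and the libraries of these regions did not overlap. The first annotated Hif1a start site was last in each group, at 6.5 to 11.6 FPKM as group means. OCR_24670, where the other 2 Hif1a coding transcripts start, is not in this order and stood at 41.3 to 47.3 FPKM as group means.

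Stimulation changed members in both directions, more of them down than up. In WT Treg 4 of the 47 rose and 11 fell at the adjusted p alone, against 26.9% and 20.7% of all tested regions, and in Ikzf1-cko Treg 4 rose and 8 fell, against 12% and 11.5%. The shares of members that fell were thus close to or above those of all regions, and the shares that rose were below. The medians were -0.17 and -0.01, against 0.04 and 0.06 over all tested regions and -0.01 and 0.09 over start-site regions. The split is tied to the scaling: the loess fit gives 7 up and 4 down in WT and 4 and 7 in Ikzf1-cko, TMM gives 3 and 10 and 1 and 10, and DESeq2 gives 2 and 11 and 1 and 4. These comparisons share their groups with the genotype comparisons above.

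**Figure D5:**
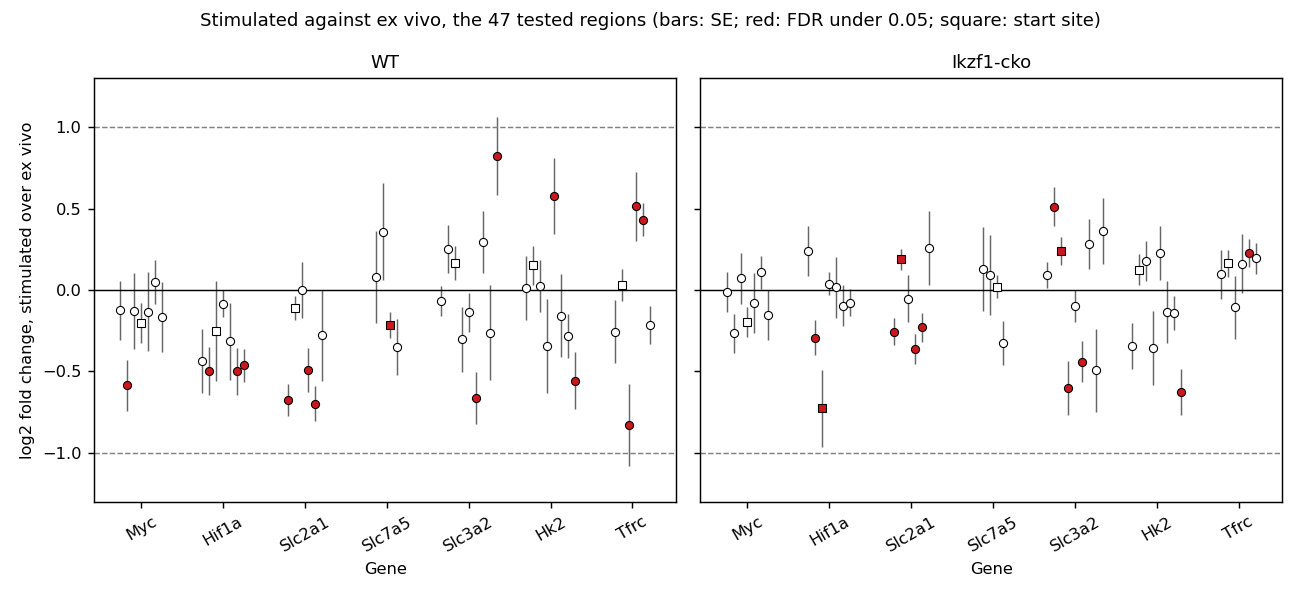
Log2 fold change of stimulated over ex vivo (y axis) for the 47 tested regions by gene (x axis), WT at left and Ikzf1-cko at right, drawn as for genotype. The median of the Slc2a1 regions is -0.38 in WT and -0.14 in Ikzf1-cko, that of Hif1a -0.43 and -0.08, and no point passes the fold threshold drawn as dashed lines.

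The largest WT losses by p were at Slc2a1. OCR_81426 (chr4:118778327-118778767), 2.77 kb before the start and the most open member, measured 99.5, 93.1 and 113 FPKM in WT ex vivo and 67.5, 59.7 and 64.6 after stimulation, with no overlap. In Ikzf1-cko it measured 104, 96.1 and 91.9 ex vivo and 81.4, 82.6 and 81.1 after stimulation. The log2 change was -0.67 ± 0.10 in WT (adjusted p = 3.19e-06) and -0.26 ± 0.08 in Ikzf1-cko (adjusted p = 0.022). OCR_81431 (chr4:118799388-118800607) measured 26.3, 27.9 and 27.7 FPKM in WT ex vivo and 17.5, 16.0 and 17.0 after stimulation, and 27.9, 28.1 and 26.7 then 20.7, 24.4 and 25.2 in Ikzf1-cko. It changed by -0.70 ± 0.11 in WT (adjusted p = 6.23e-06) and by -0.23 ± 0.09 in Ikzf1-cko (adjusted p = 0.049997). Both WT changes held in 22 of 22 alternatives. The Ikzf1-cko change of OCR_81426 is lost without any 1 of 5 Ikzf1-cko libraries, ex vivo replicates 1 and 2 and stimulated replicates 1, 2 and 3 (adjusted p up to 0.133), and that of OCR_81431 without any 1 of 9 libraries, all but stimulated WT replicate 2, ex vivo Ikzf1-cko replicate 3 and stimulated Ikzf1-cko replicate 3 (adjusted p up to 0.274).

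A test of the difference of the stimulation changes gave 2 members higher and 0 lower at the adjusted p alone, against 5.66% and 1.82% of all tested regions. They were OCR_81426, at 0.42 ± 0.13 (adjusted p = 0.043), and OCR_81431, at 0.47 ± 0.14 (adjusted p = 0.033), each lost in 13 of 21 alternatives. The first is lost without any 1 of the stimulated WT libraries, ex vivo WT replicate 3, or replicate 2 or 3 of either Ikzf1-cko group (adjusted p up to 0.168). The second is lost without any 1 of the stimulated WT libraries, ex vivo WT replicate 2 or 3, ex vivo Ikzf1-cko replicate 3, or stimulated Ikzf1-cko replicate 2 or 3 (adjusted p up to 0.116). OCR_81430, which fell by 0.49 ± 0.14 on the log2 scale in WT (adjusted p = 0.0037, lost with the loess fit) and by 0.36 ± 0.09 in Ikzf1-cko (adjusted p = 0.0050), had a difference in its changes of 0.13 ± 0.17 (adjusted p = 0.67). The Slc2a1 start-site region rose by 0.19 ± 0.07 in Ikzf1-cko (adjusted p = 0.0335, lost in 9 of 22 alternatives, without each ex vivo Ikzf1-cko library and without stimulated replicates 2 and 3, with adjusted p up to 0.105) and had -0.11 ± 0.07 in WT (adjusted p = 0.23).

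At the other genes, single regions changed with stimulation and the start-site regions of Myc, Hk2 and Tfrc did not pass the adjusted p. At Myc, OCR_40847 fell by 0.59 ± 0.16 on the log2 scale in WT (adjusted p = 0.0029, lost with the loess fit), from 41.2 ± 2.9 to 27.5 ± 5.5 FPKM. Each of the WT falls at Myc and Hif1a is lost with the loess fit. At Hif1a, OCR_24665 fell by 0.50 ± 0.15 in WT (adjusted p = 0.0069), lost with the loess fit and without stimulated WT replicate 1 (adjusted p = 0.078), and OCR_24675 and the Snapc1 start-site region fell by 0.50 ± 0.14 (adjusted p = 0.0053) and 0.46 ± 0.10 (adjusted p = 0.00052), both lost with the loess fit. In Ikzf1-cko the weak Hif1a start-site region OCR_24669 fell by 0.73 ± 0.24, from 11.6 ± 0.5 to 6.9 ± 1.1 FPKM (adjusted p = 0.0235), lost by DESeq2, after thinning and without replicate 1 or 2 of either Ikzf1-cko group (adjusted p up to 0.0939). At Hk2, OCR_94214, past the gene, fell in both genotypes, by 0.56 ± 0.17 in WT (adjusted p = 0.0091, and 0.0518 without stimulated WT replicate 1) and by 0.63 ± 0.14 in Ikzf1-cko (adjusted p = 0.0017). Thinning ends both of these calls. In WT the weak intronic OCR_94217 of Hk2 rose by 0.58 (adjusted p = 0.0394), from 3.9 ± 0.4 to 5.8 ± 1.2 FPKM. That rise is lost in 10 of 21 alternatives, among them without replicate 1 or 3 of either WT group (adjusted p up to 0.251).

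Slc3a2, the heavy chain of CD98, had changes in both directions. OCR_57880 (chr19:8787283-8787693), over an exon, fell from 43.6 ± 2.7 to 27.4 ± 8.6 FPKM in WT, by 0.66 ± 0.16 on the log2 scale (adjusted p = 0.0013), and in Ikzf1-cko from 47.9 ± 2.5 to 35.5 ± 4.9, by 0.44 ± 0.13 (adjusted p = 0.011, and up to 0.106 without ex vivo replicate 2 or stimulated replicate 3). This exonic region thus fell in both genotypes, with the second fall lost by limma. OCR_57876, past the gene, rose in WT by 0.82 ± 0.24 (adjusted p = 0.0057), and by 0.57 without stimulated WT replicate 2 (adjusted p = 0.079). In Ikzf1-cko OCR_57882, in an intron, fell by 0.60 ± 0.17 (adjusted p = 0.0085), and OCR_57884, over the start site of Wdr74, rose by 0.51 ± 0.12 (adjusted p = 0.0021, lost after thinning). The Slc3a2 start-site region OCR_57883 rose by 0.24 ± 0.09 in Ikzf1-cko (adjusted p = 0.0424) and had 0.17 in WT (adjusted p = 0.187). Its rise is lost in 13 of 22 alternatives, among them without ex vivo WT replicate 2, ex vivo Ikzf1-cko replicate 1 or 2 or any 1 of the stimulated Ikzf1-cko libraries (adjusted p up to 0.269). The Slc7a5 start-site region fell by 0.21 ± 0.08 in WT (adjusted p = 0.030), which turns to 0.048 with the loess fit and is lost without ex vivo WT replicate 1 or 3 or stimulated replicate 3 (adjusted p up to 0.194).

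Tfrc had 1 region that fell and 2 that rose in WT at the adjusted p alone, and its start-site region was not among them. OCR_45215 over the end of the gene fell by 0.83 ± 0.25 in WT, from 8.8 ± 2.6 to 5.1 ± 0.9 FPKM (adjusted p = 0.0076), and by 0.62 without ex vivo WT replicate 3 (adjusted p = 0.083). OCR_45217, over the Tnk2 start site, rose by 0.43 ± 0.10 in WT (adjusted p = 0.00080), a call that held in 22 of 22 alternatives, and OCR_45216 rose by 0.51, which is lost without any 1 of 8 libraries, all but ex vivo WT replicate 1 and the stimulated Ikzf1-cko libraries (adjusted p up to 0.139). The Tfrc start-site region changed by 0.03 ± 0.10 in WT (adjusted p = 0.82) and by 0.16 ± 0.08 in Ikzf1-cko (adjusted p = 0.15).

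Related genes were taken from 7 lists of pathway members with the same 20 kb windows. Few of their regions passed both thresholds, most of them lower in stimulated Ikzf1-cko Treg, against backgrounds over all regions of 4.63% ex vivo and 21.3% when stimulated. Past both thresholds between genotypes ex vivo, the Myc network (Max and the Mxd, Mlx and Myc relatives, 61 tested regions) had 0 higher and 0 lower, the HIF pathway (54) 1 and 3, glycolysis (124) 0 and 1, amino acid transport (77) 1 and 0, iron uptake and storage (44) 0 and 2, mTORC1 (99) 0 and 1, and Myc targets in growth (60) 0 and 0. By the adjusted p alone these lists had 6 higher and 4 lower, 7 and 6, 13 and 3, 12 and 3, 6 and 7, 13 and 11, and 8 and 1. By that rule 8.78% of all tested regions were higher and 12.7% lower ex vivo. When stimulated, the counts past both thresholds were 0 and 7 for the Myc network, 1 and 2 for the HIF pathway, 0 and 0 for glycolysis, 0 and 6 for amino acid transport, 0 and 2 for iron, 0 and 2 for mTORC1, and 1 and 1 for Myc targets. The 7 lower regions of the Myc network are all at Mycn, the Myc relative of neural tissue, where 8 were tested, and 5 of the 6 lower amino acid transport regions are all those tested at Slc7a11, the cystine transporter. The start-site regions had log2 fold changes of -1.12 at Mycn (adjusted p = 0.000845) and -1.35 at Slc7a11 (adjusted p = 2.42e-06) in that comparison.

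By the adjusted p alone, against 20.4% higher and 30.7% lower of all regions, the stimulated comparison gave 46 higher and 4 lower of 124 glycolysis regions and 29 higher and 4 lower of 60 at Myc targets in growth. The other lists were more even, with 17 and 11 for the Myc network, 11 and 8 for the HIF pathway, 19 and 9 for amino acid transport, 13 and 8 for iron, and 23 and 13 for mTORC1. The median log2 fold changes were 0.18 for glycolysis, 0.25 for Myc targets and 0.03 to 0.12 for the other lists, beside 0.29 for the members, -0.11 for all tested regions and 0.20 for start-site regions. Of the start-site regions, 58.6% passed the adjusted p in that comparison in either direction. On stimulation, no list had more than 3 regions past both thresholds in 1 direction in either genotype. Of all tested regions, 20% passed both in WT and 3.65% in Ikzf1-cko, in either direction. In WT, 3 of the list regions that fell were at Slc2a3, the glucose transporter GLUT3, of 15 tested. For the difference of the stimulation changes no list region passed both thresholds, against 1.98% of all tested regions.

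Among the 10885 start-site regions, the pattern over the 12 libraries most like that of the Myc start site belonged to Trappc3 (Pearson r = 0.974), Heatr1 (0.97) and Mcm9 (0.964). The closest to Slc2a1 was Gnpnat1 (0.949), to Slc7a5 Arl6ip1 (0.983), to Hk2 Nub1 (0.968), to Slc3a2 Utp6 (0.938), to Tfrc Ppp5c (0.938) and to Hif1a Gpr160 (0.924). These are descriptions over 12 libraries that share genotype, state and depth.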

How the data were processed

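Paired-end ATAC-seq reads were aligned by the authors with Bowtie2 to mouse mm9 (the methods print a human build, but the labels and the chromosomes are mouse). Peaks were called with MACS2, and the deposited table holds counts of de-duplicated reads and FPKM for 118680 regions in 12 libraries, 3 per group. FPKM was recomputed from the deposited counts and matched. A second deposited file holds the authors' own comparisons and was not used. Counts were tested here with the quasi-likelihood test of edgeR (4.0.16, R 4.3.3) in 1 model of 4 group means, scaled to library totals, since the background scaling of the study needs reads outside the regions. Regions needed 3.6 CPM in at least 3 libraries, and p-values were adjusted (Benjamini-Hochberg) over all 69957. SE is the log2 fold change over the root of F. In simulated data of the ex vivo genotype comparison with a true log2 difference of 2 set at 200 of the 69957 regions, 198 were recovered and 2 unchanged regions were called. The simulation used a fixed spread and scored calls past both thresholds. It therefore does not bear on the smaller differences above, called by the adjusted p alone. Alternatives were TMM, a loess fit against abundance, DESeq2 (1.42.0), limma (3.58.1) on log2(FPKM + 1) and log2(FPKM + 0.1), other filters, thinning, a replicate block, and leaving out each library.

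The members and lists were chosen with earlier results of these data known. Regions were to be named if over the first annotated start site, if they had the smallest p of their gene in a comparison, or if past both thresholds. Since no member passed both, the members past the adjusted p alone and the printed windows were chosen after their values were seen. The methods call the 3 libraries of a group biological replicates. Separate mice are not stated for this assay, so the p-values speak for these libraries and not for separate mice. The test takes the spread of a region partly from all tested regions and from all 4 groups. Total reads in regions were 4808916 to 15355521 per library.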

Additional observations from a re-analysis of the deposited data

Results flagged for a closer look

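The stimulation change in Ikzf1-cko Treg minus that in WT Treg passed the adjusted p of edgeR's quasi-likelihood test for the interaction at 2 Slc2a1 regions. These were 2 of the 47 tested members. By the same rule 5.66% of all tested regions were higher and 1.82% lower, so the share of members called higher was not above that of all regions. At OCR_81426, 2.77 kb before the start site, the difference was 0.42 on the log2 scale, and at OCR_81431, in an intron, it was 0.47. Of 3 stimulated libraries in each genotype, all lay below the ex vivo libraries of their genotype at both regions. Each of these calls was lost in 13 of 21 alternatives, and the cause was not tested.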

How the results depend on the processing

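Over all results and alternatives, 4781 values stayed on their side of the adjusted p threshold, 210 lost a call and 53 gained one. Of the values called in the main or the alternative fit, 4 changed sign, all 4 with the loess fit. They were the stimulated genotype differences of Hif1a OCR_24670 (-0.17 in place of 0.20), Slc2a1 OCR_81427 (-0.095 in place of 0.29) and Slc3a2 OCR_57885 (-0.23 in place of 0.11). The last was the WT stimulation change of Slc7a5 OCR_110702 (0.048 in place of -0.21). Changes of sign between values called in neither fit are held in the 4781.

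No member passed both thresholds with the main settings. By the adjusted p alone the counts were 11 and 20 for genotype ex vivo and stimulated, 15 and 12 for stimulation of WT and Ikzf1-cko, and 2 for the difference of these changes. In stimulated cells 1 member passed both thresholds with TMM and with DESeq2 (Slc2a1 OCR_81430, higher in each), and 1 with no filter on low counts (Tfrc OCR_45212, lower). For stimulation of Ikzf1-cko 1 did with no filter (Slc7a5 OCR_110700, higher).

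By the adjusted p alone, the stimulated genotype count was 13 with the loess fit. The count for the difference of the changes was 0 with TMM and DESeq2, 1 with loess, which is lower in place of higher, 1 higher with both limma fits, no filter and thinning, and 5 higher with the CPM minimum in all 12 libraries. Stimulation of Ikzf1-cko gave 5 with DESeq2, 6 with both limma fits and 4 after thinning. Leaving out each library in turn gave 0 past both thresholds ex vivo, 0 to 1 when stimulated, 0 to 1 for stimulation of WT (Tfrc OCR_45215, without ex vivo WT replicate 1), and 0 for the other comparisons. By the adjusted p alone it gave 8 to 13, 15 to 21, 11 to 15, 5 to 12 and 0 to 3. The cause of these differences was not tested.

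With the replicate block the counts by the adjusted p alone were 10, 21, 14, 10 and 2. The methods say that sorted cells were divided between the states but not that the numbers pair libraries, and the deviations of same-numbered libraries correlated at -0.355 to 0.284 over regions, against -0.377 to 0.402 for different numbers.

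With 3 libraries a group, small changes at weak regions could not be resolved. Depth differs by genotype without overlap, and the thinned counts hold fewer reads.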
